A study of Mus musculus with 6 samples.

Results

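The cytosolic ribosomal protein genes were followed in a mouse spermatogonial stem cell line grown with GDNF, without GDNF, or with lovastatin in place of GDNF. The members are the protein-coding genes whose symbol is Rpl or Rps followed by a number, with an optional final letter a, x, y or l, together with Rpsa, Rplp0, Rplp1 and Rplp2. The rule found 80 genes among the 31384 genes of the count table, 31 of the small and 49 of the large subunit, and all 80 entered the test among 16121 genes. It uses names only and no measured value. In the gene annotation 83 symbols matched, and 3 of them (Rps4l, Rpl32l and Rpl6l) were left out because they are not annotated as protein-coding. Some ribosomal proteins have symbols that do not match, and Rps3a1, Fau and Rpl36al were described beside the members.

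Spermatogonial stem cells are the germ cells from which sperm production is renewed, and GDNF (glial cell line-derived neurotrophic factor) is the growth factor that sustains them, by way of Gfra1 and the receptor kinase Ret. Lovastatin inhibits HMG-CoA reductase, the rate-limiting enzyme of cholesterol synthesis. The PTC group had 10 ng/mL GDNF, the NTC group had none, and the LOVA group had 5 uM lovastatin instead. All groups shared the medium with EGF, LIF and FGF2 and a feeder layer of mouse embryonic fibroblasts treated with mitomycin C, which stops their division, and RNA was taken after 18 days. Each group had 2 libraries, called A and B after the columns of the count table, with total counts between 12454671 and 22668087. Whether a group's libraries were separate cultures, and whether feeder cells were removed, the labels leave unsaid, and they name no strain, clone or animal for the line. The p-values thus measure the spread between these libraries, which may be technical.

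A ribosome is built from ribosomal RNA and one copy of almost every ribosomal protein, so the genes of this family are transcribed at high and coordinated levels in growing cells. Their mRNAs begin with a run of pyrimidines (C and U) directly at the cap, the TOP motif, through which the kinase mTOR and the protein Larp1 control their translation. Several members have a second gene copy used in particular tissues. Rpl10l and Rpl39l are autosomal copies of the X-linked Rpl10 and Rpl39 and are known from the male germ line, Rpl3l is known from muscle, and Rps27l is a copy of Rps27 known as a p53 target.

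Sequence of the start sites is shown for members at both ends of the comparisons below, since the pyrimidine run is the feature the family is known for. Each line gives 15 bases before and 15 bases from the annotated start onward, read 5′ to 3′ on the gene's strand from the RefSeq promoter table (GRCm38.p6). Capitals mark the longest run of C and T where it reached 6 bases.
Rps4x, chrX:102189377-102189406, minus strand: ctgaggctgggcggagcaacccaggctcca
Rpl39, chrX:37085208-37085237, minus strand: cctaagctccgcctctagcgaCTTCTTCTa
Rps27, chr3:90213634-90213663, minus strand: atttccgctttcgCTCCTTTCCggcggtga
Rps18, chr17:33955651-33955680, minus strand: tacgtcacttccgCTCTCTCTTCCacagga
Rpl4, chr9:64173372-64173401, plus strand: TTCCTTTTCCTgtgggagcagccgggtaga
Rps2, chr17:24720048-24720077, plus strand: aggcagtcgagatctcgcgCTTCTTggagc
Rpl39l, chr16:10170213-10170242, plus strand: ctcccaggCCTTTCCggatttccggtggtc
Rpl10l, chr12:66284387-66284416, minus strand: tttggcctccattttgcggctggcggtggg
The table held a start for 60 of the 80 members. A run of at least 6 consecutive C or T on the gene's strand lay in this window for 37 of the 60 (61.7%), against 32.7% of 16507 protein-coding genes. Because many genes have several annotated starts, the same count was made over starts, where 38 of 72 member starts (52.8%) and 28.9% of all starts held one. Annotated starts need not be the starts used in these cells, and no match says only that these letters are not in this window. A run could lie anywhere in the window, so it need not be a TOP motif. Those of Rpl4 and Rpl39l ended before the annotated start, and those of Rpl39 and Rps2 began after it. Only those of Rps27 and Rps18 included it among the windows printed here.

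The members are among the most abundant mRNAs of these cultures. Values of the 2 libraries of a group are given in the order A, B. The members held 6.69% and 6.45% of all counts with GDNF (PTC), 6.84% and 5.75% without it (NTC) and 6.31% and 5.00% with lovastatin in its place (LOVA). The group means were 6.57% ± 0.165 (SD, n = 2) in PTC, 6.29% ± 0.774 (SD, n = 2) in NTC and 5.65% ± 0.921 (SD, n = 2) in LOVA. The NTC libraries lay on both sides of the PTC libraries, while both LOVA libraries lay below both PTC libraries. With 2 libraries against 2, an exact two-sided permutation test cannot go below 0.33. Small subunit members held 2.58%, 2.41% and 2.16% of counts on average in PTC, NTC and LOVA, and large subunit members 3.99%, 3.88% and 3.50%.

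Levels within the family were compared per kilobase of the principal annotated transcript, as mean CPM (each library's counts divided by its scaled total) per kilobase over the 6 libraries. The median of the 80 members was 810, and the level at the 90th percentile was 4.97 times that at the 10th (1404 against 282). Rplp1, an acidic protein of the stalk that recruits elongation factors, was highest at 2816. Rps2, at the mRNA entry channel, followed at 1702, with Rpl13a at 1695, Rpl23a, which lies at the exit of the peptide tunnel, at 1665, Rplp0, the base of the stalk, at 1527 and Rps6, the substrate of S6 kinase, at 1484. The muscle-associated copy Rpl3l was lowest at 1.66. Such a level depends on the transcript chosen: the one taken for Rps20 was 3706 bases long, which gave it 177 per kilobase. The steadiest members across libraries were Rpl3, Rpl7 and Rps26, each with an SD of log2 CPM of 0.09 over the 6 libraries, and the most variable were Rpl3l at 1.29, Rps4x at 0.84 and Rps18 at 0.81.

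**Figure D1:**
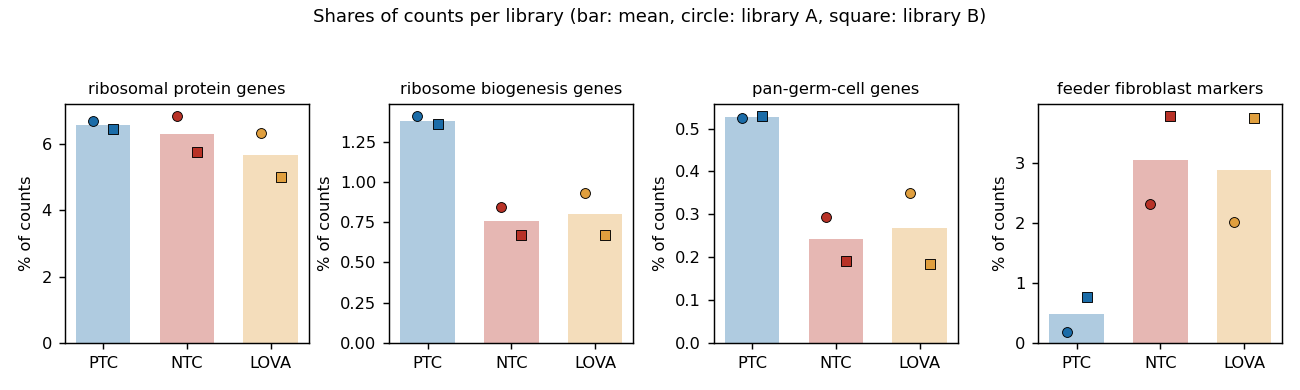
Percent of all counts held in each library by the ribosomal protein genes, the ribosome biogenesis genes, the pan-germ-cell genes and the feeder fibroblast markers (bars, mean of 2 libraries; circles, library A; squares, library B; vertical scales differ). Ribosomal protein genes stay between 5.00% and 6.84%, while ribosome biogenesis and germ cell genes are higher in both PTC libraries than in the other 4 and feeder markers are lower.

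Marker genes of the cell types in the cultures differed in level between the groups, and these values stand beside every comparison with PTC. The 19 pan-germ-cell genes held 0.525% and 0.530% of counts with GDNF, 0.293% and 0.192% without it and 0.350% and 0.185% with lovastatin. The 21 feeder fibroblast markers held 0.186% and 0.774% with GDNF, 2.31% and 3.79% without it and 2.01% and 3.76% with lovastatin. Macrophage markers (10 genes) ranged from 0.0223% to 0.0259% in PTC, from 0.181% to 0.225% in NTC and from 0.0402% to 0.0474% in LOVA. Every marker of these 3 lists had counts in every group, whereas the Sertoli cell receptor Fshr was at 0 in all groups and Amh at 0 in PTC and LOVA. Among the Leydig markers Lhcgr was at 0 in PTC and NTC, and Cyp17a1 and Insl3 were at 0 in PTC. Tie1, an endothelial marker, was at 0 in NTC and LOVA. In bulk RNA, fewer cells of a type and less RNA per cell cannot be told apart, and the part of the cell mixture in the differences below was not tested.

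The first comparison, NTC against PTC, asks what leaving GDNF out of the medium changes. The family's share of counts overlapped between these groups, and a minority of its members rose without GDNF. Of the 80 members 17 rose and 0 fell at an adjusted p under 0.05 (edgeR quasi-likelihood test, adjusted over all 16121 genes). The share that rose was near the background: 21.2% of members against 21.5% of all genes. In the other direction 12.9% of all genes fell, while DESeq2 called 3 members lower. Scaling to the ribosomal protein genes themselves gave 17 that rose and 6 that fell, against 17.4% and 17.0% of all genes. At an unadjusted p under 0.05, 24 members were higher (background 27.3%) and 5 lower (background 20.8%). Both NTC libraries lay above both PTC libraries in 38 members (background 39.0%) and below both in 18 (background 38.5%). The log2 fold change was negative for 29 members (background 50.9%). The median log2 fold change was 0.12 over members and -0.02 over all genes, and the interquartile range was 0.54 against 1.52. That width was narrower too than in the 341 other abundant genes (mean CPM from 324 upward), where it was 2.30 and where 31.1% rose and 27.6% fell.

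The members that rose were led by Rps4x, Rpl39, Rps27l and Rps27. Rps4x, an X-linked small subunit protein (chrX:102184941-102189394 in GENCODE M21 on GRCm38, 7 exons), had 268 and 284 CPM with GDNF, 786 and 980 without it and 633 and 908 with lovastatin. Both NTC libraries lay far above both PTC libraries, with LOVA near NTC. The log2 fold change of Rps4x, NTC minus PTC, was 1.68 (SE 0.22, adjusted p = 0.00870). Rpl39, the small X-linked protein that lines the exit of the peptide tunnel, had 161 and 167 CPM with GDNF, 416 and 460 without it and 353 and 420 with lovastatin. Its groups without GDNF did not overlap with PTC, and its log2 fold change was 1.42 (SE 0.17, adjusted p = 0.00859).

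Rps27, a zinc-finger protein of the small subunit on chromosome 3, and its copy Rps27l on chromosome 9 rose by similar amounts. Rps27 had 196 and 228 CPM with GDNF, 492 and 499 without it and 417 and 398 with lovastatin. Rps27l had 71.8 and 90.9 CPM with GDNF, 196 and 199 without it and 146 and 163 with lovastatin. For both genes the LOVA libraries lay between the other groups, without overlap. The log2 fold changes, NTC minus PTC, were 1.22 (SE 0.16, adjusted p = 0.00870) for Rps27 and 1.28 (SE 0.18, adjusted p = 0.00920) for Rps27l. Rps20, a protein of the small subunit head, was next: it had 428 and 432 CPM with GDNF, 840 and 817 without it and 706 and 719 with lovastatin, and its log2 fold change was 0.95 (SE 0.14), with an adjusted p of 0.010.

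The other 12 members that rose had log2 fold changes from 0.49 to 0.75. In the small subunit these were Rps12 (0.75), Rps29 (0.66), Rps9 (0.62), Rps21 (0.55) and Rps19 (0.49), the last known as the gene most often mutated in Diamond-Blackfan anaemia. In the large subunit they were Rpl11 (0.64), Rplp1 (0.60), Rpl10 (0.54), Rpl36a (0.54), Rpl23 (0.53), Rpl27a (0.53) and Rpl41 (0.51). By subunit, 9 of 31 small and 8 of 49 large subunit genes rose (29.0% and 16.3%, against 21.5% of all genes), with medians of 0.08 and 0.15. These counts rest on few libraries. In fits without 1 library of these groups, the member median was 0.12 without PTC A, 0.08 without PTC B, 0.03 without NTC A and 0.18 without NTC B. All 17 kept their direction in each of these fits, which leave 1 library in a group, but most no longer passed the test.

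At the other end were Rpl3l, Rps18, Rpl39l, Rpl10l and Rps2, none of which passed the test. Rps18, a protein of the small subunit head (chr17:33951999-33956001), had 579 and 527 CPM with GDNF, 355 and 181 without it and 322 and 142 with lovastatin. Both PTC libraries were highest, and within NTC and within LOVA the B library, which had the lower share of germ cell genes, was the lower one. The log2 fold change of Rps18 was -1.05 (95% interval -2.13 to 0.04, adjusted p = 0.113), the widest interval of any member above 100 CPM in every library. Rps2 had 2681 and 2280 CPM with GDNF, 1773 and 1414 without it and 1737 and 1286 with lovastatin. It did not overlap between PTC and NTC, and its log2 fold change was -0.64 (SE 0.21, adjusted p = 0.0541). Rpl8, which lies near the peptidyl transferase centre, was at -0.51 (adjusted p = 0.0847), Rpsa, also known as the laminin receptor, at -0.49 (0.114) and Rpl4, which reaches into the peptide tunnel, at -0.45 (0.0712).

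**Figure D2:**
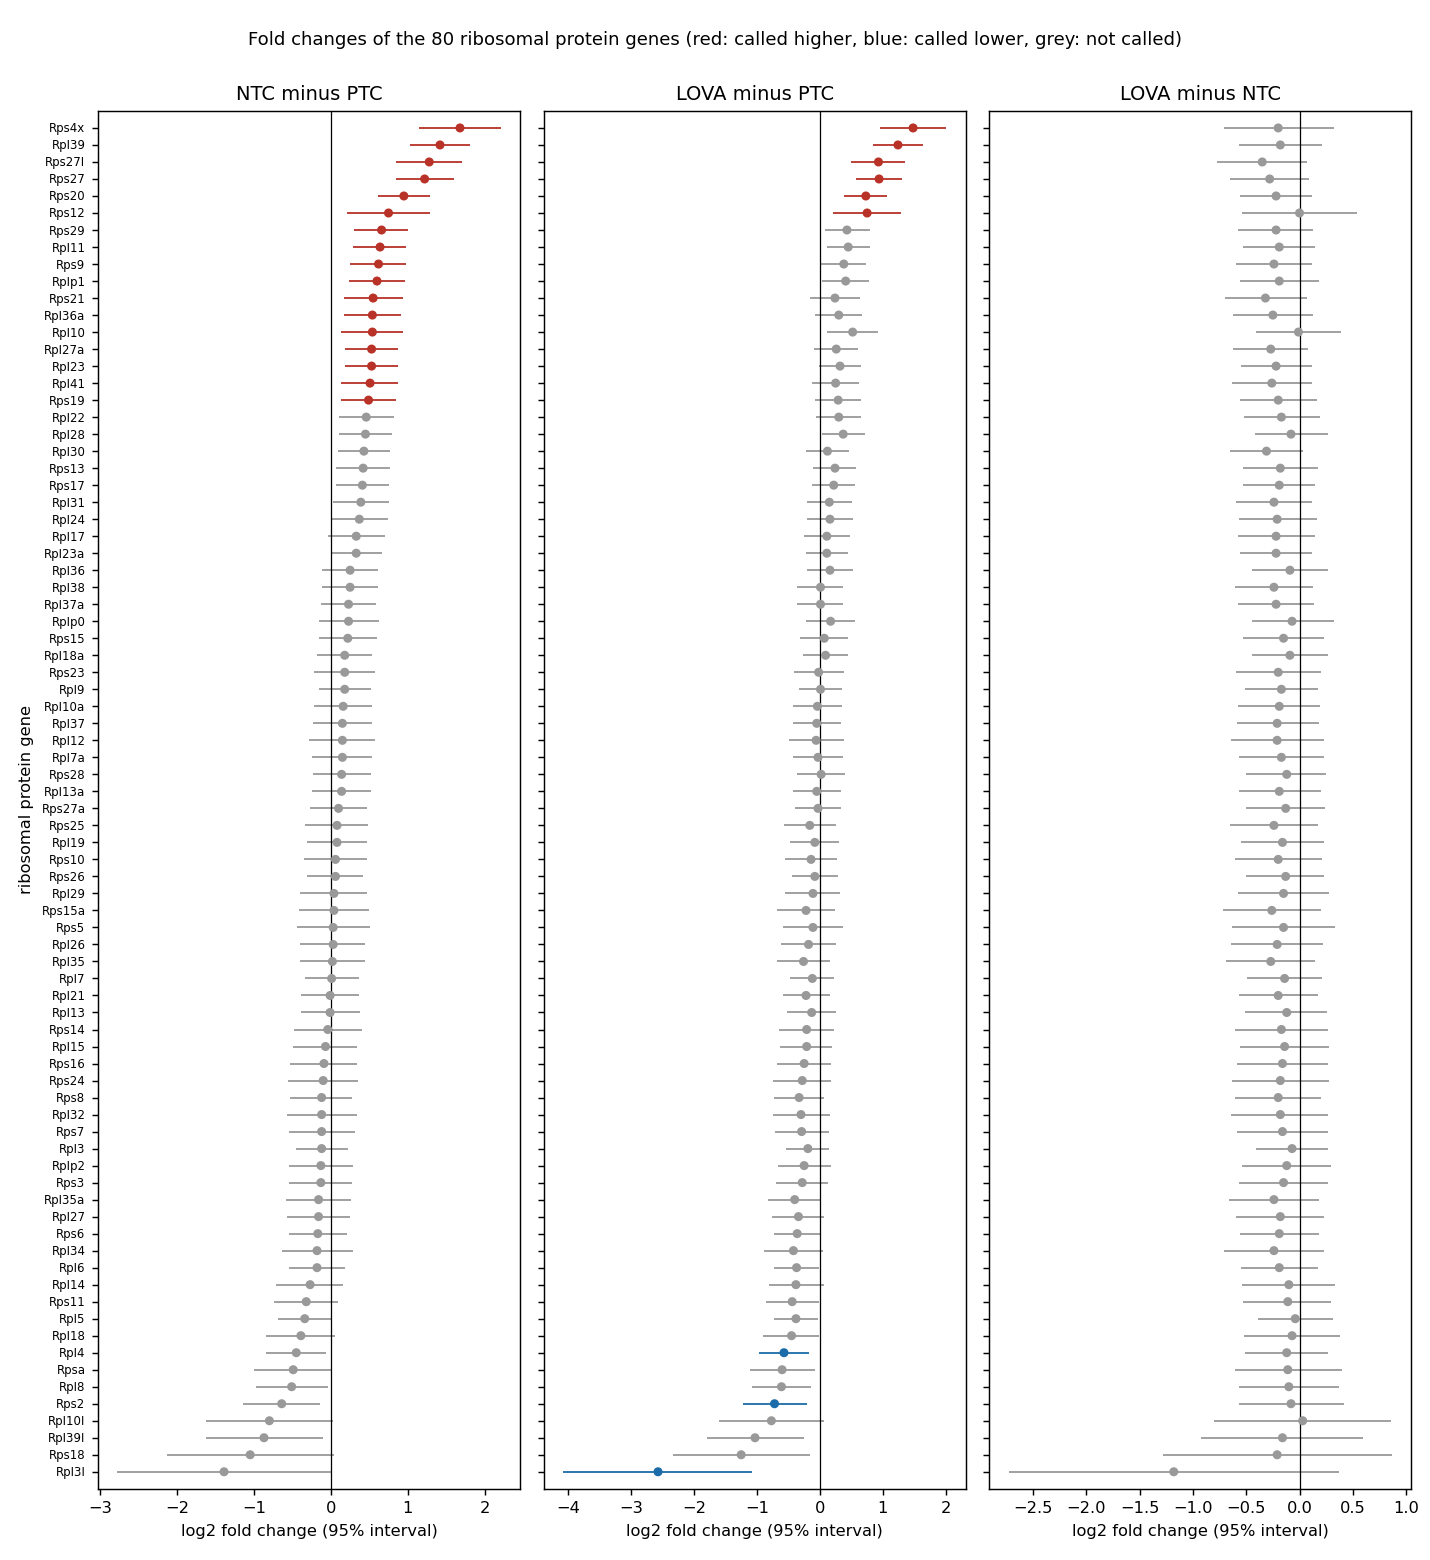
Log2 fold changes of the 80 ribosomal protein genes (rows, in the order of NTC minus PTC) with 95% intervals in the 3 comparisons (red, called higher; blue, called lower; grey, not called; horizontal scales differ). Rps4x leads both comparisons with PTC, at 1.68 and 1.48, and in LOVA minus NTC 79 of 80 points lie below 0 with no gene called.

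Members of 1 functional group of the ribosome often stood at different values. Of the stalk proteins Rplp1 rose (0.60, SE 0.16, adjusted p = 0.0277), while Rplp0 (0.23), Rplp2 (-0.13) and Rpl12 (0.15) were not called. Rpl5 and Rpl11 travel together with 5S RNA as a unit that also binds Mdm2; Rpl11 rose (0.64, SE 0.14, adjusted p = 0.0203), and Rpl5 stood at -0.34 (SE 0.15, adjusted p = 0.116). Among 6 small subunit proteins near the mRNA channel or in the head, Rps20 and Rps12 rose (33.3%, against 21.5% of all genes). The others, Rps2, Rps3, Rps10 and Rpsa, were not called. All 7 proteins near the peptide exit had a positive log2 fold change, with a median of 0.33, but Rpl39 was the only one that passed the test. Rps6, at -0.17, Rps27a, which is made as a fusion with ubiquitin, at 0.10, and Rpl38, known for its role in translating Hox mRNAs, at 0.25 were not called.

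The 4 X-linked members, Rps4x, Rpl39, Rpl10 and Rpl36a, all rose, and this grouping was chosen after their values were seen. Their median log2 fold change, NTC minus PTC, was 0.98, against 0.08 over the 76 autosomal members, of which 13 (17.1%) rose. Over 629 other X-linked genes tested, 170 rose and 54 fell (27.0% and 8.59%), with a median of 0.09. Over all genes 21.5% rose and 12.9% fell. The X-linked members made up 1.59% ± 0.132 (SD, n = 2) of the family's counts in PTC, 3.32% ± 0.542 (SD, n = 2) in NTC and 3.33% ± 0.637 (SD, n = 2) in LOVA. That share did not overlap between PTC and the other groups, and it was higher in the B library, with more feeder counts, in every group.

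The counts of Rpl10 and Rps12 are uncertain because the table also holds genes named as their copies. Rps12 had 269 to 476 counts per library, against 10589 to 17033 for Rps12-ps3, so nearly all counts of the pair were assigned to the copy. With the counts of both added, Rps12 had 680 and 688 CPM with GDNF, 1206 and 1128 without it and 1012 and 973 with lovastatin; its log2 fold change was 0.77 (SE 0.14, adjusted p = 0.0135) for NTC minus PTC. Rpl10-ps3 had 2211 to 8332 counts. Rpl10 with its copy had 392 and 487 CPM with GDNF, 849 and 951 without it and 737 and 889 with lovastatin; its log2 fold change was 1.03 (SE 0.19, adjusted p = 0.0129). In this comparison both genes stayed called, Rpl10 with a larger change. In LOVA minus PTC, Rpl10 with its copy was at 0.89 (SE 0.19, adjusted p = 0.0214) and was called, whereas Rpl10 alone was at 0.52 (adjusted p = 0.0556) and was not. Ribosomal protein genes have many processed copies in the genome, and how reads shared with copies outside these pairs were assigned was not tested.

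**Figure D3:**
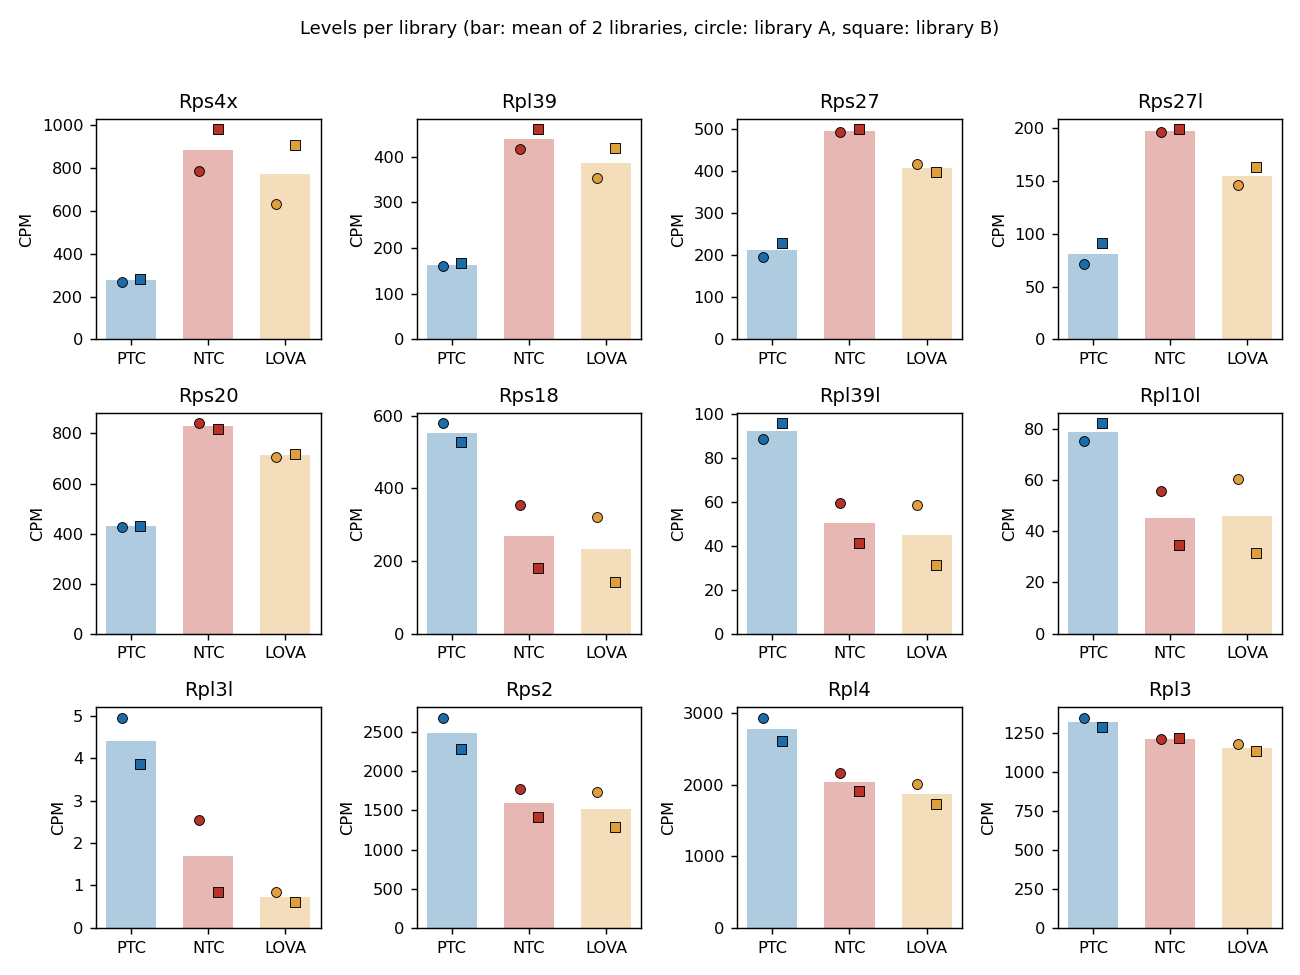
CPM of 12 ribosomal protein genes in each library (bars, mean of 2 libraries; circles, library A; squares, library B; vertical scales differ). Rps4x, Rpl39, Rps27, Rps27l and Rps20 are lower in both PTC libraries than in the other 4, Rps18, Rpl39l, Rpl10l, Rpl3l, Rps2 and Rpl4 are higher in both, and Rpl3 stays between 1129 and 1345 CPM.

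The tissue-associated copies are described next, each with its partner. The coding sequences of 2 pairs, read 5′ to 3′ from GENCODE M21, are shown because their differences are what separates the counts of the partners. Capitals mark the bases that differ within a pair.
Rpl39 (chromosome X, minus strand, 3 exons): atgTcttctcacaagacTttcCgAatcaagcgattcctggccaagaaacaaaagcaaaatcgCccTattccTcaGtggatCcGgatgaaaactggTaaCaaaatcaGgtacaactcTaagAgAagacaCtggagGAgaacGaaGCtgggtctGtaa
Rpl39l (chromosome 16, plus strand, 3 exons): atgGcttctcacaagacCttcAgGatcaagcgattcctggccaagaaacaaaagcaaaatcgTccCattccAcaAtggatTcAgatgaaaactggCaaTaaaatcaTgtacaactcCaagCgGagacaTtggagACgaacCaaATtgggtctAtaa
Rps27 (chromosome 3, minus strand, 4 exons): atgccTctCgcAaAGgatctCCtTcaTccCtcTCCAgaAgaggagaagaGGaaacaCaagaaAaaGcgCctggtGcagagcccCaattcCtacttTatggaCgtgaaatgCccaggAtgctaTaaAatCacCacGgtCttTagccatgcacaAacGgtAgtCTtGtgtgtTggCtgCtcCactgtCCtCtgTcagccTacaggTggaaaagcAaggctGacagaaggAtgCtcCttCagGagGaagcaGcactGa
Rps27l (chromosome 9, plus strand, 4 exons): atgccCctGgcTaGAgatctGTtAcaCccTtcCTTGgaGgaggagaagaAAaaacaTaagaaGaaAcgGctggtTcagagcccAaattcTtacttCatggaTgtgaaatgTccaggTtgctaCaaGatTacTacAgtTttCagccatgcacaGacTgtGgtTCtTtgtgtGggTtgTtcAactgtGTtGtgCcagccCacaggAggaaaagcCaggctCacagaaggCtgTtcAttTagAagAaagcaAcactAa
The Rpl39 pair shares 85.3% of 156 coding bases and differs at 23, with an identical stretch of at most 38 bases. The Rps27 pair shares 76.1% of 255 coding bases and differs at 61, with an identical stretch of at most 11. Rpl10 and Rpl10l, with 6 exons and 1 exon, share 84.8% of 645 coding bases and at most 23 in a row. The identical stretches are short beside paired reads, though the assignment of single reads was not examined.

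Rpl39l had 88.6 and 95.7 CPM with GDNF, 59.5 and 41.5 without it and 58.8 and 31.4 with lovastatin. Rpl10l had 75.1 and 82.0 CPM with GDNF, 55.7 and 34.6 without it and 60.4 and 31.6 with lovastatin. Both copies were highest in the PTC libraries without overlap, and lowest in the B libraries of the other groups. For NTC minus PTC the log2 fold change was -0.87 for Rpl39l (SE 0.32, adjusted p = 0.0743) and -0.80 for Rpl10l (SE 0.35, adjusted p = 0.114), so neither passed the test. Rpl3l had 79 and 91 counts with GDNF, 32 and 13 without it and 12 and 7 with lovastatin; its log2 fold change was -1.39 (SE 0.59, adjusted p = 0.103) for NTC minus PTC.

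The copies were also set against their partners, as a share of each pair's counts per kilobase. These shares are described without a test. Of the pair with Rpl39, Rpl39l made up 29.5% and 30.4% with GDNF, 9.79% and 6.42% without it and 11.3% and 5.38% with lovastatin. Rpl10l made up 19.9% and 18.8% of its pair with Rpl10 in PTC, 10.9% and 6.52% in NTC and 10.6% and 6.78% in LOVA. In both pairs the PTC libraries stood above the other 4, and within NTC and LOVA the A library, with more germ cell counts, was above the B library. Rps27l, in contrast, made up between 19.5% and 22.1% of its pair with Rps27 in all 6 libraries, and the groups overlapped. Counts of Rpl10-ps3 were not added to Rpl10 here. Rpl3l was at most 0.360% of its pair with Rpl3 in any library. These shares do not depend on the scaling between libraries. The feeder and germ cell shares changed over the same libraries, and their part in these values was not tested.

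**Figure D4:**
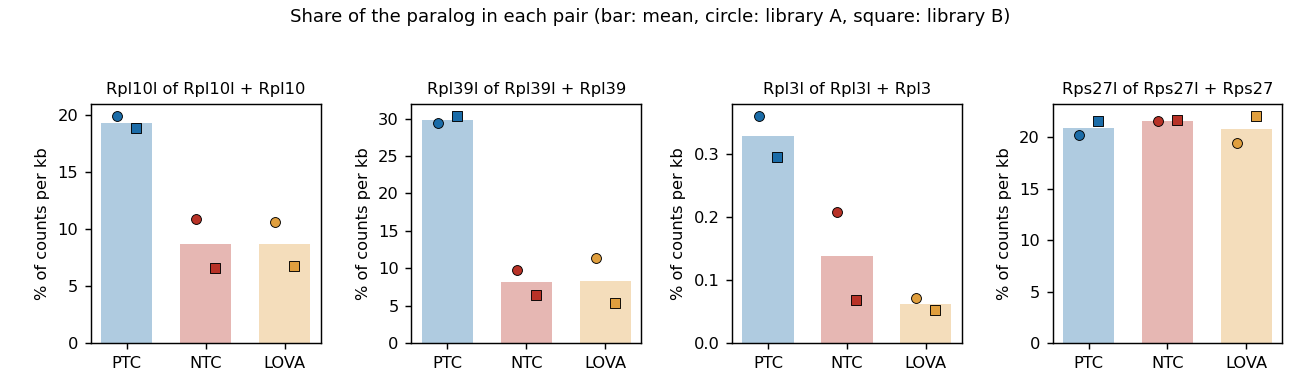
Share of the second gene copy in the counts per kilobase of each pair, by library (bars, mean of 2 libraries; circles, library A; squares, library B; vertical scales differ). Rpl39l and Rpl10l average 29.9% and 19.3% of their pairs in PTC and 8.11% and 8.70% in NTC, while Rps27l stays between 19.5% and 22.1%.

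The second comparison, LOVA against PTC, sets lovastatin against GDNF and shares the PTC libraries with the first. Here 6 of 80 members rose (background 19.8% of genes) and 3 fell (background 10.8%), with a median of -0.06 over members and 0.00 over all genes. At an unadjusted p under 0.05, 12 members were higher (background 26.5%) and 11 lower (background 19.8%). Both LOVA libraries lay above both PTC libraries in 28 members (background 38.4%) and below both in 30 (background 37.9%), and 46 log2 fold changes were negative (background 49.9%). Those that rose were Rps4x (1.48, SE 0.22, adjusted p = 0.0167), Rpl39 (1.24, SE 0.17, adjusted p = 0.0167), Rps27 (0.94), Rps27l (0.93), Rps12 (0.75) and Rps20 (0.73). Those that fell were Rpl3l (-2.57, SE 0.64, adjusted p = 0.0281), Rps2 (-0.72, SE 0.21, adjusted p = 0.0433) and Rpl4 (-0.57, SE 0.16, adjusted p = 0.0403). Rpl4 had 2939 and 2620 CPM with GDNF, 2163 and 1912 without it and 2017 and 1731 with lovastatin, so that it was among the most counted members in every library.

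Rpl39l came close to the threshold in this comparison (-1.03, SE 0.32, adjusted p = 0.0509), as did Rpl11 (0.45, SE 0.14, adjusted p = 0.0545). Rps18 (-1.25, SE 0.45, adjusted p = 0.0769) and Rpl10l (-0.77, SE 0.35, adjusted p = 0.130) were not called. Without PTC A none of the 9 members was called. Without PTC B the 4 genes Rps4x, Rpl39, Rps27 and Rps27l stayed called, and without LOVA B Rps4x, Rpl39, Rps20 and Rps27 did. Without LOVA A the count that fell grew from 3 to 17. Scaling on the pan-germ-cell genes raised the median of all genes to 0.99. On that scale 16 members rose and 0 fell, against 27.5% and 0.198% of all genes. Rps2 and Rpl4 turned positive there (0.23 and 0.40). With DESeq2 size factors 6 members rose and 5 fell.

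The third comparison, LOVA against NTC, asks what lovastatin adds where GDNF is absent from both media. No member was called in either direction; the background was 0% of genes called as well. DESeq2 also called 0 members, and 0 members had an unadjusted p under 0.05, against 2.13% of all genes in the lower and 1.35% in the higher direction. The log2 fold changes were small and one-sided: 79 of 80 were below 0, against 49.0% of all genes, with a median of -0.18 over members and 0.01 over all genes. Their interquartile range was 0.08, against 0.37 over all genes and 0.23 over the 341 other abundant genes, whose median was -0.01 and of which 52.2% were below 0. In 35 of the 80 members both LOVA libraries lay below both NTC libraries (background 13.0% of genes), and in 0 members both lay above (background 12.7%).

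Named members show the size of this offset. Rps27l (-0.35, 95% interval -0.77 to 0.07) and Rps21 (-0.32, interval -0.70 to 0.07) were farthest below 0 after the sparsely counted Rpl3l (-1.18, interval -2.73 to 0.37). Rps21 had 418 and 374 CPM in NTC A and B against 339 and 298 in LOVA, with no overlap, whereas Rpl3 had 1208 and 1214 against 1178 and 1129, a difference of -0.07. Rpl10l (0.03), Rps12 (0.00) and Rpl10 (-0.01) were at the upper end, though with the counts of their copies added Rps12 was at -0.23 and Rpl10 at -0.15, near the median of the family. Each of these intervals includes 0, and each member's own difference was within the error of the fit.

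The members share their libraries, so the 80 signs are not independent observations. Between the A libraries 76 members were lower in LOVA, with a median log2 ratio of -0.15, and between the B libraries 79 were, with a median of -0.22. The 2 LOVA libraries themselves differed by a median of -0.21 (B against A) and the 2 NTC libraries by -0.13. These sizes are similar to the -0.15 and -0.22 between LOVA and NTC, which also compare single libraries. The member median of -0.18 compares groups of 2 libraries, so it is not directly comparable with them. The PTC libraries differed by 0.03. When libraries were scaled to the ribosomal protein genes themselves, the median was -0.02 over members and 0.17 over all genes. That scale makes the family's total equal in every library, so a member median near 0 holds by construction. The family's share of counts overlapped between NTC and LOVA. Pan-germ-cell and feeder shares also overlapped between these groups, while the macrophage share did not; its part in the offset was not tested.

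Of 7 examined genes of ribosomal proteins and their copies outside the naming rule, 1 (14.3%) was called lower in each comparison with PTC. Over all genes 12.9% fell and 21.5% rose in NTC against PTC, and 10.8% and 19.8% in LOVA against PTC. For NTC minus PTC, Rps3a1 was at 0.08, Fau, which is made as a fusion with a ubiquitin-like protein, at 0.39 and Rpl36al at 0.12, and none of these was called. Rack1, a scaffold protein on the small subunit, was at 0.00. Rpl22l1, a copy of Rpl22, was the one called. It had 215 and 221 CPM with GDNF, 131 and 113 without it and 129 and 123 with lovastatin. It fell in NTC (-0.83, SE 0.16, adjusted p = 0.0139) and in LOVA (-0.79, SE 0.16, adjusted p = 0.0197), both against PTC.

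Ribosome biogenesis genes, whose products process ribosomal RNA and assemble the subunits, fell in large number beside PTC. Of 69 ribosome biogenesis genes 38 fell and 1, Sbds, rose in NTC against PTC (background 12.9% and 21.5%), with a median of -0.68. In LOVA against PTC 35 fell and Sbds rose (background 10.8% and 19.8%), with a median of -0.68. In LOVA against NTC edgeR and DESeq2 each called 0, and 0 had an unadjusted p under 0.05. Fbl (fibrillarin), the methyltransferase of box C/D snoRNPs, had 466 and 451 CPM with GDNF, 119 and 98.9 without it and 139 and 79.5 with lovastatin. It fell by 2.07 on the log2 scale in NTC (SE 0.28, adjusted p = 0.00874), the largest fall in the list. Gar1, of the pseudouridine snoRNPs, was at -1.83, Heatr1, a processome protein, at -1.58 and Polr1b, a subunit of RNA polymerase I, at -1.52, and each fell.

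The biogenesis genes held 1.41% and 1.36% of counts with GDNF, 0.841% and 0.668% without it and 0.932% and 0.672% with lovastatin. The B libraries of NTC and LOVA were lowest here and in the share of pan-germ-cell genes, and the part of germ cell content in the biogenesis result was not tested. Scaled to the pan-germ-cell genes, which moved the median of all genes from -0.02 to 1.03 in NTC against PTC, 3 biogenesis genes rose and 1 fell and their median was 0.37. On that scale 37 ribosomal protein genes rose, 0 fell and their median was 1.17. Over all genes, 31.8% rose and 0.242% fell on the same scale. In NTC against PTC the biogenesis median was -0.55 without NTC B, -0.83 without NTC A, -0.72 without PTC A and -0.66 without PTC B. These fits leave 1 library in a group, and in each of them fewer biogenesis genes passed the test than with all 6 libraries.

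Regulators and other mRNAs of the same class moved in both directions. Among 24 translation factors and TOP mRNAs 4 rose and 4 fell in NTC against PTC (16.7% each, against 21.5% and 12.9% of all genes), with a median of -0.26. Tpt1, a classical TOP mRNA, had 874 and 1031 CPM with GDNF, 2516 and 2671 without it and 1966 and 2440 with lovastatin, and rose by a log2 fold change of 1.45 in NTC (SE 0.18, adjusted p = 0.00859). Eif2s3x, an X-linked subunit of the initiation factor that brings the first tRNA, rose (0.98, adjusted p = 0.0391), as did Btf3 (0.64, adjusted p = 0.0277), while Hnrnpa1 fell (-0.93, adjusted p = 0.0185). Of 9 host genes of snoRNAs, several of which carry TOP starts, 6 rose and 0 fell (66.7% and 0%, against the same background), with a median of 0.97. Gas5 led them with 25.4 and 38.9 CPM with GDNF, 114 and 147 without it and 92.8 and 145 with lovastatin (log2 fold change 2.02, SE 0.31, adjusted p = 0.0101), followed by Snhg12 (1.60), Snhg8 (0.98) and Zfas1 (0.71).

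Of 21 regulators of ribosomal protein expression, 2 rose and 4 fell in NTC against PTC (9.52% and 19.0%, against 21.5% and 12.9% of all genes). The Myc family genes Mycl (-1.98, adjusted p = 0.0125) and Mycn (-1.37, adjusted p = 0.0321) fell, as did the kinase gene Mtor (-1.05, adjusted p = 0.0143). Larp1, which binds TOP mRNAs, fell from 381 and 378 CPM in the PTC libraries to 195 and 184 in the NTC libraries (adjusted p = 0.00971). Rps6kb1, the S6 kinase, rose (1.15, adjusted p = 0.0290). In LOVA against PTC the values were -1.30 for Mycl, -1.23 for Mycn, -0.85 for Mtor, -0.68 for Larp1 and 1.28 for Rps6kb1, each of which passed the test. Scaled to the pan-germ-cell genes, 7 regulators rose and 0 fell in NTC against PTC, and among the translation factors and TOP mRNAs 6 rose and 0 fell. On that scale 31.8% of all genes rose and 0.242% fell. Scaled to the ribosomal protein genes, the counts were 0 and 5 for the regulators and 1 and 7 for the translation factors, against 17.4% and 17.0% of all genes. Without NTC B, the medians in NTC against PTC were -0.10 for the regulators, -0.21 for the translation factors and 0.70 for the snoRNA hosts. That fit leaves 1 NTC library, and fewer genes of each of these lists passed the test in it. Of 10 tested chaperones of ribosomal proteins, Grwd1, which accompanies Rpl3, fell in NTC against PTC (-1.08, adjusted p = 0.0197). That is 10.0%, against 12.9% of all genes, and 0 chaperones rose, against 21.5%. Of 15 genes of ribosome stress, Zfp598 (-0.68) and G3bp1 (-0.65) fell in NTC against PTC and 0 rose. Those are 13.3% and 0%, against 12.9% and 21.5% of all genes. In LOVA against PTC 2 rose and 2 fell (13.3% each, against 19.8% and 10.8% of all genes). Ascc3 (0.87, adjusted p = 0.0276) and the p53 regulator Mdm2, which Rpl5 and Rpl11 bind, rose (0.64, adjusted p = 0.0440). Zfp598 (-0.68) and G3bp1 (-0.59) fell there too.

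Members with and without a pyrimidine run in the start window were both found among those that rose. Because a run could lie anywhere in that window, this is not a split by TOP start. Among the 37 members with a run, 8 rose in NTC against PTC (background 21.5% of genes), with a median of 0.08 and a range of -1.05 to 1.42. Among the 23 with a start entry and no run, 6 rose, with a median of 0.22 and a range of -1.39 to 1.68. In LOVA minus NTC the medians were -0.19 and -0.17. The member with the largest rise, Rps4x, had no run in the window printed above, and Rps18, near the lowest end, had one.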

How the data were processed

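RNA of 6 libraries was measured by strand-specific paired-end sequencing, per the labels. The authors deposited whole-number raw counts by Ensembl gene; per the submitters' processing notes, the build was mm10 and the tools were DESeq2, RSEM, Bowtie2 and Trimmomatic, with no roles given. If RSEM made them, the counts are rounded estimates. GENCODE M21 gave symbols for 31363 of 31384 genes.

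Genes were filtered with filterByExpr (16121 tested), scaled by TMM and fitted over all 6 libraries, 1 coefficient per group, with edgeR 4.0.16 (robust quasi-likelihood, 3 residual degrees of freedom, common biological coefficient of variation 0.26) in R 4.3.3. Calls needed a Benjamini-Hochberg adjusted p under 0.05 over all genes. CPM used scaled totals; shares used raw totals. A count of 3 equals 0.128 to 0.258 CPM, for counting error only. Alternatives were DESeq2 1.42.0 and its size factors, no filter, other scalings, a block by column letter and leaving out each library. Scripts were tested on simulated data.

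Members, lists and tests were chosen with earlier results of these data known. Named members were, per comparison, up to 6 called ones at each end (or 3 uncalled), the 6 most abundant per kilobase, those of fixed role lists, and 3 each of highest and lowest spread; further genes were named after their values were seen. One gene, and the alternative that included it, are not reported here.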

Additional observations from a re-analysis of the deposited data

How the results depend on the processing

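The 0 members called lower in NTC minus PTC became 1 with DESeq2 size factors, 7 without a filter on low counts, 3 with DESeq2, 6 with scaling to ribosomal protein genes (added after seeing the data) and 0 to 6 leaving out 1 library. The 17 called higher became 9 without the filter, 37 with scaling to pan-germ-cell genes and 0 to 23 leaving out 1 library. Their median of 0.12 became 1.17 with pan-germ-cell scaling and ranged from 0.03 to 0.18 leaving out 1 library. In LOVA minus PTC the 3 called lower became 5 with DESeq2 size factors, 8 without the filter, 6 with DESeq2, 0 with pan-germ-cell scaling, 5 with ribosomal protein scaling and 0 to 17 leaving out 1 library. The 6 called higher became 16 with pan-germ-cell scaling, 10 with ribosomal protein scaling and 0 to 5 leaving out 1 library. The median of -0.06 became 0.91 and 0.06 with these scalings and ranged from -0.18 to 0.05 leaving out 1 library. With pan-germ-cell scaling Rpl4 turned to 0.40 and Rps2 to 0.23. In LOVA minus NTC 0 members were called under every alternative run, and the median of -0.18 became -0.02 with ribosomal protein scaling and ranged from -0.29 to -0.08 leaving out 1 library. The mean share of counts in PTC became 6.79% without the 20 most abundant other genes and 6.78% with Rps3a1, Fau and Rpl36al added (chosen after seeing the data), and leaving out 1 library gave 6.45% to 6.69%. Pan-germ-cell scaling moved the median of all genes as well, from -0.02 to 1.03 in NTC minus PTC and from 0.00 to 0.99 in LOVA minus PTC. Ribosomal protein scaling makes the family's total equal in every library, so member medians near 0 hold there by construction. The cause of the other shifts was not tested, except that leaving out a library leaves fewer samples.

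With the column letter as a replicate block, 24 members were called higher and 9 lower in NTC minus PTC, against 27.4% and 22.5% of all genes. In LOVA minus PTC 12 were higher and 14 lower, against 26.5% and 21.5% of all genes, and in LOVA minus NTC 0 members were called. Deviations of the libraries A correlated between groups at 0.344, 0.387 and 0.544, but the labels do not say what a letter shares. With 2 libraries a group and 3 residual degrees of freedom, the intervals given set how small a difference of a single member could be called.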

Other observations

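The mitochondrial ribosomal protein genes, which are encoded in the nucleus and serve the separate ribosomes of mitochondria, are not members. Of 78 genes with Mrpl or Mrps symbols, 7 rose and 4 fell in NTC against PTC (8.97% and 5.13%, against 21.5% and 12.9% of all genes), with a median log2 fold change of -0.17. Mrpl33 (1.28, SE 0.17, adjusted p = 0.00885), Mrps28 (1.32, SE 0.27, adjusted p = 0.0156) and Mrpl53 (1.17, SE 0.25, adjusted p = 0.0171) led those that rose, and Mrpl45 (-0.92, SE 0.27, adjusted p = 0.0387) those that fell. In LOVA against PTC 2 rose and 6 fell (2.56% and 7.69%, against 19.8% and 10.8% of all genes), with a median of -0.39. Mrps9 fell (-0.87, SE 0.16, adjusted p = 0.0179) and Mrpl33 rose (1.09, SE 0.17, adjusted p = 0.0167).

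In LOVA against NTC edgeR and DESeq2 each called 0 of the 78, and 0 had an unadjusted p under 0.05. Their log2 fold changes were below 0 for 65 of 78 (49.0% of all genes), with a median of -0.13. Both LOVA libraries lay below both NTC libraries for 20 of them, against 13.0% of all genes. The genes held 0.436% and 0.433% of counts with GDNF, 0.377% and 0.298% without it and 0.368% and 0.254% with lovastatin, so that NTC and LOVA overlapped and both lay below PTC. Without NTC B the median of the 78 in NTC against PTC was -0.07. Scaled to the pan-germ-cell genes, 21 of them rose and 0 fell in that comparison, against 31.8% and 0.242% of all genes.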
